A study of Mus musculus with 18 samples.

Results

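The OTU (ovarian tumour) deubiquitinases are a family of cysteine proteases that remove ubiquitin from proteins, and 10 of their mouse genes were followed here in pancreas and liver of mice that lack 1 or both copies of a member, Otub2. The members were taken by symbol from a fixed list: Otub1, Otub2, Otud1, Otud3, Otud4, Otud5, Otud6b, Otud7b, Tnfaip3 and Yod1. All 10 were found among the 55291 gene symbols of both count tables. The study asked what Otub2 does in pancreatic beta cells, and compared homozygous knockout (HOM, Otub2 -/-), heterozygous (HET, Otub2 +/-) and wild-type (WT, Otub2 +/+) mice. Pancreas gave 11 libraries: 3 HOM (all male), 5 HET (2 female, 3 male) and 3 WT (1 female, 2 male). Liver gave 7 libraries, 5 HET and 2 WT, with no sex stated and no HOM. The sources used here do not give strain, age or the deleted stretch of Otub2. Libraries are named below by genotype and the submitters' replicate number. The labels do not say that every sample is a separate animal, so p-values measure the spread between these samples.

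OTU enzymes differ in the type of ubiquitin chain they cut and in the proteins they act on. Several act on signalling that leads to NF-kB: Tnfaip3 (A20) restrains it, and Otud7b and Otud5 act on the adaptor Traf3. Others serve protein quality control, such as Yod1, which works with the ATPase p97 (Vcp) at the endoplasmic reticulum.

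Depth and tissue content differed widely between libraries. Total counts were 264660 to 1686234 in HET livers and 155201 and 342609 in WT livers. In pancreas they were 50663 to 205103 in HOM, 49502 to 1326541 in HET and 63483 to 188496 in WT. The list of 10 hepatocyte genes summed to 116751 to 147048 CPM (CPM is a gene's counts over the library total, times 1000000) in liver and to 86.2 to 3879 CPM in pancreas. The 15 acinar genes, which should lead a pancreas library, summed to 3775 to 15712 CPM in HOM, 43.0 to 164961 CPM in HET and 15.8 to 143 CPM in WT pancreas. Of these 15 genes, 6 had counts in any pancreas and at most 4 in a single library, so the sums rest on few genes. Prss2, Amy2b and Cel, digestive enzymes of acinar cells, were among those listed at 0 in all 11 pancreata. HET 11 and HET 16 pancreas stood apart: 14 stomach mucosa genes summed to 231102 CPM in HET 11 and 193020 CPM in HET 16, against at most 25736 CPM in the other 9 pancreata. They were also the deepest pancreata, and olfactory and vomeronasal receptor genes took 0.0151% and 0.0252% of their counts, against 0.242% to 0.728% in the others.

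The windows just upstream of Otub2 and Otub1 are shown because the targeted gene and its closest relative among the members are the members the pancreas results turn on. RefSeq windows (GRCm38.p6) were matched by symbol for 8 of the 10 members. The Otub2 window lies at chr12:103388432-103388681 on the plus strand, next to a gene at chr12:103388682-103406350 (GENCODE mouse release 21, mm10). The Otub1 window lies at chr19:7206317-7206534 on the minus strand and ends 32 bases before the RefSeq start of a gene at chr19:7198202-7206316. Capitals mark CG, read on the strand of the gene, 5′ to 3′.
Otub2: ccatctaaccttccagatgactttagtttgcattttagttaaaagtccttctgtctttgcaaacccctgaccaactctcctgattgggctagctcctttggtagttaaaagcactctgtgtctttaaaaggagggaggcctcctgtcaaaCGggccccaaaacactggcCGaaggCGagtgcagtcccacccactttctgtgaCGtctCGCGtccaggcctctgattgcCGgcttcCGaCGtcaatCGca
Otub1: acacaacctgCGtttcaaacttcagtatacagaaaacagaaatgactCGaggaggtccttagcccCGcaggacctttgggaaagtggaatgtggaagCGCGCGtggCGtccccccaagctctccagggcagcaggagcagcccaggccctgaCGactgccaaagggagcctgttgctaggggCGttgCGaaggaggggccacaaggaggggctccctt
Each window held 10 CG pairs. For Otub2 the median over all 32851 windows of that length was 6, and 37.8% held at least as many. For Otub1 it was 5, and 35.7% held at least as many. There the windows compared were the 218 bases that end at the RefSeq start, while the Otub1 window ends 32 bases before it. The Otub1 share thus compares positions that are not the same. The libraries sample transcripts at their 3′ end, so a gene's count does not grow with its length, and the counts below say nothing of the start site used.

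Otub2, the targeted gene, had very few counts. It had 1, 0 and 0 counts in HOM pancreas (4.88 CPM in HOM 10), and 0 counts in HET 9, 10, 11 and 15 with 1 count in HET 16 (1.49 CPM). In WT pancreas it had 3, 4 and 3 counts, which is 36.9 CPM in WT 11, 63.0 CPM in WT 12 and 15.9 CPM in WT 16. Every WT pancreas lay above every HOM and every HET pancreas. This held for 66 of 20274 genes with counts in pancreas (0.326%) and, among the 6 members with counts there, for Otub2 alone. Depth limits this order: 3 counts would be 59.2 CPM in HOM 19, 23.3 CPM in HOM 21 and 60.6 CPM in HET 9. In HET 10 and HET 15 they would be 38.4 and 18.4 CPM. All these lie above the 15.9 CPM of WT 16, so counts of 0 there cannot place these libraries below WT 16. Pooled over the libraries, the HOM to WT ratio was 0.0866 (95% interval 0.00200 to 0.609) and the HET to WT ratio 0.0146 (0.000336 to 0.102). The intervals cover counting error only. Most of the HET depth lies in HET 11 and HET 16, and the other 3 HET pancreata together had 0 counts of 290201, a total at which 3 counts would be 10.3 CPM. In edgeR's quasi-likelihood test without a filter on low counts, Otub2 had a log2 difference of -3.65 ± 3.48 (SE) in HOM against WT (adjusted p = 1) and -3.56 ± 2.78 in HET against WT (adjusted p = 0.684), so neither passed the threshold of 0.05. Because the deleted stretch was not given, 3′ counts may not tell a knockout transcript from an intact one. Tissue content also differed. Acinar genes summed to 15.8 to 143 CPM in WT pancreas and to 40.9 to 203 CPM in liver. HOM had 3775 to 15712 CPM and HET 43.0 to 164961 CPM. The 10 islet endocrine genes were at 0 in WT 11 and WT 12 and summed to 419 CPM in WT 16. They summed to 59.2 to 293 CPM in HOM and 0 to 756 CPM in HET. The part of tissue content in the Otub2 values was not tested. In liver Otub2 had 1, 0, 1, 1 and 2 counts in HET 1 to 5 and 1 and 0 counts in WT 1 and 2, a HET to WT ratio of 0.679 (0.0760 to 32.1). At this depth a difference in liver was not detectable.

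**Figure D1:**
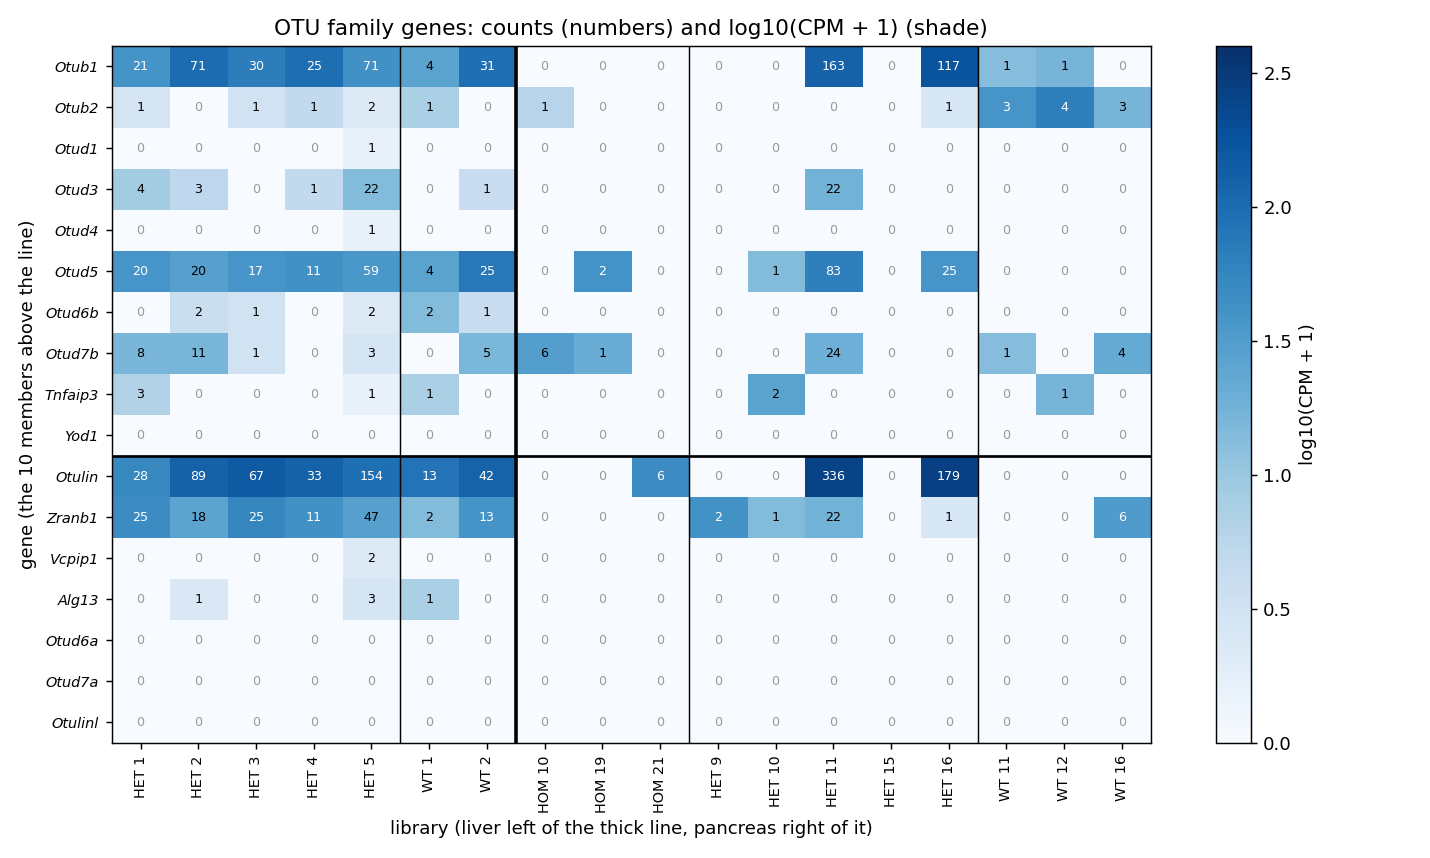
Counts (numbers) and log10(CPM + 1) (shade) of the 10 members and 7 further OTU genes (rows) in each of the 18 libraries (columns, liver left of the thick line, pancreas right of it). Otub1 and Otud5 carry counts in all 7 livers, while in pancreas nearly all their counts lie in HET 11 and HET 16, and Yod1 is at 0 throughout.

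Otub1, the closest relative of Otub2 among the members, binds E2 enzymes such as Ube2n and holds back chain formation. It had 0 counts in all 3 HOM pancreata. In HET pancreas it had 163 counts in HET 11 (122.9 CPM) and 117 in HET 16 (174.5 CPM) and 0 in HET 9, 10 and 15, while WT 11 and WT 12 had 1 count each (12.3 and 15.8 CPM) and WT 16 had 0. Its counts thus lay almost wholly in the 2 deepest pancreata, which also had the highest stomach sums, and the 3 other HET pancreata gave none. Stomach genes were also present in HET 9 (25736 CPM) and the 3 HOM pancreata (5149 to 16837 CPM), all with 0 counts of Otub1. Their depth was far lower, and 3 counts would be 60.6 CPM in HET 9 and 14.6 to 59.2 CPM in the HOM pancreata. These floors lie below the 122.9 and 174.5 CPM of HET 11 and HET 16. The other 9 pancreata together held 2 counts of 1007893 (1.98 CPM), against 140 CPM pooled in HET 11 and HET 16. HET 11 and HET 16 were both above all other pancreata in 1853 of 20274 genes (9.14%), with Otub1 the one such member of 6 with counts. Pooled, HET was 20.4-fold of WT (5.59 to 169), and HOM was at least 15.7-fold below HET, from 3 counts over the HOM total. Without HET 11 and HET 16 the HET libraries held 0 counts and the HET to WT ratio has no value, since WT held 2. The fitted differences did not pass (HET against WT 5.74 ± 3.00, adjusted p = 0.684, and HOM against HET -8.66 ± 3.40, adjusted p = 0.660, edgeR without filter). Between HOM and WT, with 0 and 2 counts, no fold can be given. The part that depth and stomach content play in the Otub1 counts was not tested. In bulk tissue, fewer cells of a type and less RNA per cell cannot be told apart.

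**Figure D2:**
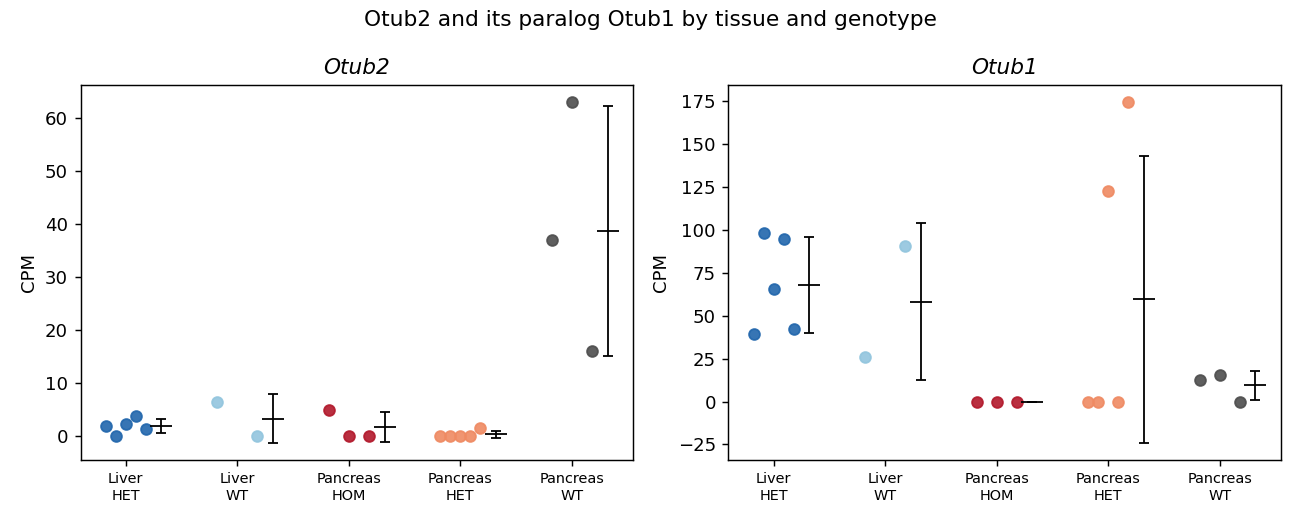
CPM of Otub2 (left) and Otub1 (right) by tissue and genotype, each point a library, with the mean and SD of each group beside it. The 3 WT pancreata lie above all HOM and HET pancreata for Otub2, and for Otub1 the 2 high pancreas points at 122.9 and 174.5 CPM are HET 11 and HET 16.

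In liver Otub1 had counts in every library. It reached 39.1, 98.4, 65.8, 94.5 and 42.1 CPM in HET 1 to 5 (21, 71, 30, 25 and 71 counts), against 25.8 CPM in WT 1 (4 counts) and 90.5 CPM in WT 2 (31 counts). The 2 genotypes overlapped, with both HET and WT libraries near the top and the bottom of the range. The log2 difference of HET against WT was 0.21 ± 0.52 (edgeR, adjusted p = 0.924), and the pooled HET to WT ratio, 0.846 (0.590 to 1.25), ran the other way. The log2 difference was 1.46 without WT 2 and -0.24 without WT 1, where the pooled ratios were 2.31 and 0.657. Of all 4803 liver genes tested, 0 passed (0%, smallest adjusted p 0.0681), with 497 at an unadjusted p under 0.05, and DESeq2 called 10. Without a filter on low counts, edgeR called 57 of 18552 genes (0.307%), 28 higher (0.151%) and 29 lower (0.156%) in HET, with 0 members among them.

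Otud5, a deubiquitinase that acts on Traf3 and limits interferon responses, was the other member with counts in every liver. It had 37.2, 27.7, 37.3, 41.6 and 35.0 CPM in HET 1 to 5 (20, 20, 17, 11 and 59 counts), against 25.8 and 73.0 CPM in WT 1 and WT 2 (4 and 25 counts). The HET livers lay close together between the 2 WT livers. The log2 difference of HET against WT was -0.49 ± 0.45 (edgeR, adjusted p = 0.742). The pooled HET to WT ratio was 0.595 (0.395 to 0.924). Its interval lies below 1 for counting error, while the test, which takes in the spread between livers, did not pass. Both values rested on WT 2: without it the pooled ratio was 1.34 (0.512 to 5.01) and the log2 difference 0.53 (adjusted p = 0.909). In pancreas Otud5 had 2 counts in HOM 19 (39.5 CPM) and 0 in HOM 10 and HOM 21. It had 83 counts in HET 11 (62.6 CPM), 25 in HET 16 (37.3 CPM), 1 in HET 10 (12.8 CPM) and 0 in HET 9 and 15, and 0 in all 3 WT. Against WT, pooled HET was at least 5.29-fold higher, but without HET 11 and HET 16 HET held 1 count and no fold can be given. The fitted difference did not pass (edgeR without filter, adjusted p = 0.684).

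Otud7b (Cezanne), which cuts Lys11-linked chains, had counts in all 3 pancreas groups, as did Otub2. It had 6, 1 and 0 counts in HOM 10, 19 and 21, 24 in HET 11 with 0 in the 4 other HET pancreata, and 1, 0 and 4 in WT 11, 12 and 16. HOM averaged 16.3 ± 14.9 CPM, HET 3.62 ± 8.09 CPM and WT 11.2 ± 10.7 CPM (SD, n = 3, 5 and 3), so the groups overlapped. Pooled ratios were 1.21 (0.331 to 4.85) for HOM to WT, 0.699 (0.262 to 2.35) for HET to WT and 1.74 (0.631 to 4.15) for HOM to HET. Every HET count came from 1 library, HET 11, and without it HET held 0 counts. In liver it had 8, 11, 1, 0 and 3 counts in HET 1 to 5 and 0 and 5 in WT 1 and 2, a HET to WT ratio of 0.625 (0.232 to 2.10). It was 1.01 without HET 5 and 0.406 without HET 2, and without WT 2 the WT livers held 0 counts.

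Otud3 had 22 counts in pancreas, all in HET 11 (16.6 CPM). In liver it had 4, 3, 0, 1 and 22 counts in HET 1 to 5 and 0 and 1 in WT 1 and 2. The pooled liver ratio of HET to WT was 4.07 (0.677 to 166), with 22 of the 30 HET counts in HET 5, without which it was 2.01 (0.270 to 89.3). On CPM HET averaged 5.69 ± 4.89 against 1.46 ± 2.06 in WT (SD, n = 5 and 2). The ranges overlapped.

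Tnfaip3 (A20), an NF-kB inhibitor, had 0 counts in HOM, 2 in HET 10 and 1 in WT 12 pancreas, and 3 and 1 in HET 1 and HET 5 with 1 in WT 1 liver. Otud6b had 0 counts in all 11 pancreata and 0, 2, 1, 0 and 2 in HET 1 to 5 and 2 and 1 in WT 1 and 2 liver, so that every HET liver (at most 2.77 CPM) lay below every WT liver (at least 2.92 CPM). This held for 1134 of 18552 genes with liver counts (6.11%), and the pooled ratio of 0.226 (0.0440 to 1.46) includes 1. With 0 counts in all HOM pancreata, Otub1, Otud3 and Tnfaip3 were 3 of the 6 members with pancreas counts, against 9161 of 20274 genes (45.2%). Otud1 and Otud4 each had 1 count in all 18 libraries, both in HET 5 liver. Yod1 had 0 counts throughout, an upper limit of 0.721 CPM in liver and 0.998 CPM in pancreas from 3 counts of each tissue's total. Of the members, 9 had counts in liver and 6 in pancreas, where 62.0% and 59.5% of protein-coding genes had counts in liver and in pancreas.

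**Figure D3:**
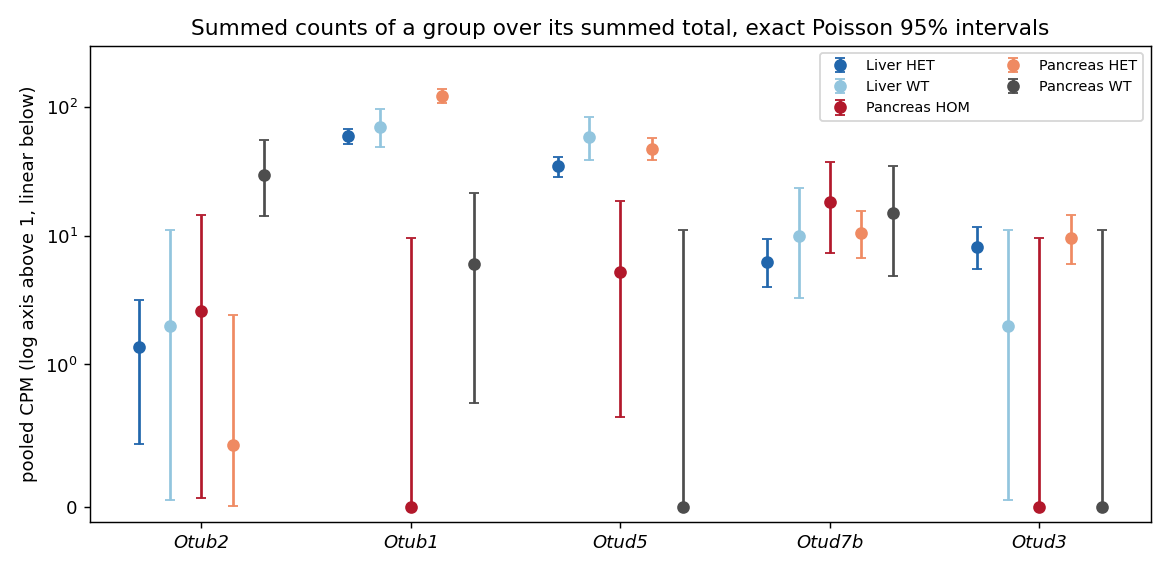
Pooled CPM of 5 members by tissue and genotype, the summed counts of a group over its summed total, with exact Poisson 95% intervals (vertical axis log above 1, linear below). Otub2 is highest in WT pancreas, while the HET pancreas points of Otub1 and Otud5 rest on HET 11 and HET 16, and that of Otud3 on HET 11.

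Across all members, the pancreas filter on low counts kept 0 of 10. Of 3719 genes that passed it, edgeR called 0 (0%) in HOM against WT, HET against WT and HOM against HET, with 185, 517 and 410 at an unadjusted p under 0.05, and DESeq2 called 5, 149 and 32. Without the filter 0 of 20274 genes passed in each comparison. The spread between pancreata was wide, a biological coefficient of variation of 166%, against 35.4% in liver. Members' summed CPM per library was 34.1, 59.2 and 0 in HOM, 0, 38.4, 220, 0 and 213 in HET 9, 10, 11, 15 and 16, and 61.6, 94.5 and 37.1 in WT pancreas.

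The 7 further OTU genes in the tables showed the same unequal detection. Otulin, which cuts linear ubiquitin chains, had 28 to 154 counts in HET livers and 13 and 42 in WT livers, with a log2 difference of 0.13 ± 0.43 (edgeR, adjusted p = 0.942). In pancreas Otulin had 336 counts in HET 11 and 179 in HET 16, 6 in HOM 21 and 0 in the others. Zranb1 (TRABID), which prefers Lys29- and Lys33-linked chains, had 11 to 47 counts in HET livers and 2 and 13 in WT livers, a log2 difference of 0.55 ± 0.56 (adjusted p = 0.771). In pancreas Zranb1 had 2, 1, 22, 0 and 1 counts in HET 9, 10, 11, 15 and 16, 6 in WT 16 and 0 in HOM. Vcpip1 had 2 counts in HET 5 liver and Alg13 had 1, 3 and 1 in HET 2, HET 5 and WT 1 liver. Otulinl, Otud6a and Otud7a were at 0 throughout.

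**Figure D4:**
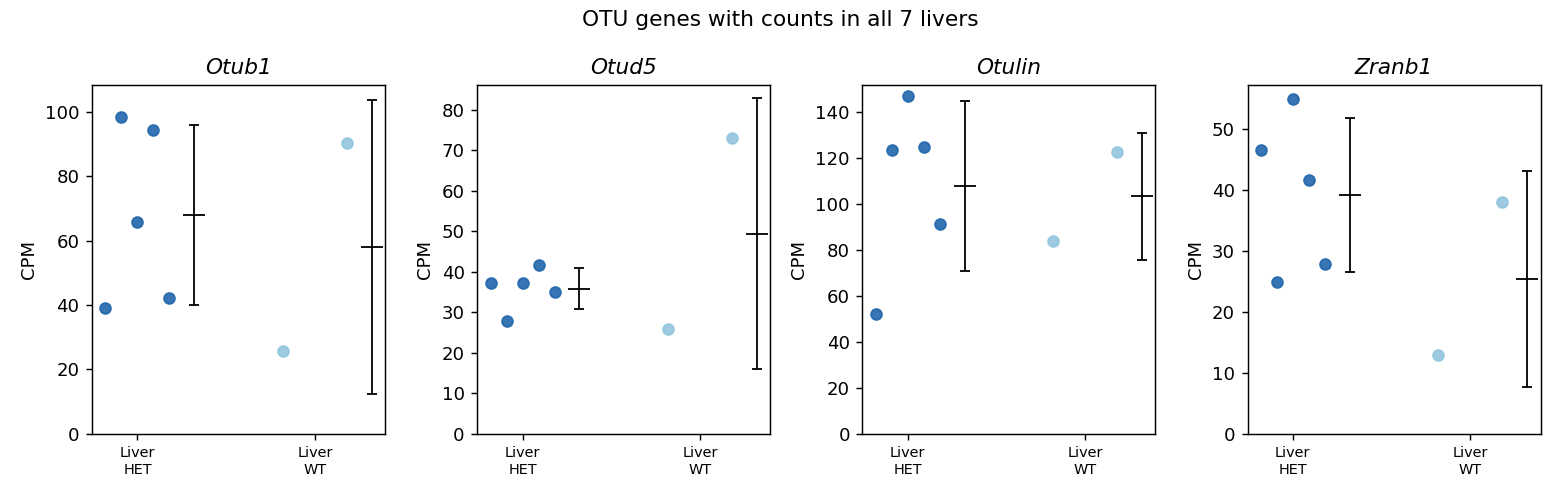
CPM of Otub1, Otud5, Otulin and Zranb1, the OTU genes with counts in all 7 livers, in HET and WT livers, with the mean and SD of each group. HET and WT points overlap for all 4 genes.

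Liver against pancreas, over the WT and HET libraries and with genotype in the model, is a comparison of 2 separately made tables as well as of 2 tissues, which cannot be told apart. Here 4081 of 7673 genes passed (53.2%), 1956 higher (25.5%) and 2125 lower (27.7%) in liver. Scaling by total counts, which moved the median log2 difference of all genes to -1.56, against -0.12 with TMM, gave 1811 higher and 3244 lower. Otub1 and Otud5 were the members tested, with log2 differences of 1.29 ± 1.40 (adjusted p = 0.448) and 1.97 ± 1.37 (adjusted p = 0.227), neither past the threshold. Without HET 11 and HET 16, which hold 280 of its 282 pancreas counts, the Otub1 difference was 6.05 (adjusted p = 3.30e-05), past the threshold. That call follows from taking out those counts, so it is no test of a tissue difference. Zranb1 was higher in liver by 2.61 ± 1.02 (adjusted p = 0.0362), a call that was lost with scaling by total counts (1.37, adjusted p = 0.201), without the filter, and without WT 12 pancreas or HET 2, HET 5 or WT 2 liver. Otulin did not pass (1.53 ± 1.72, adjusted p = 0.464). Without HET 11 and HET 16, which hold all its counts in HET and WT pancreas, it did (8.63, adjusted p = 4.05e-06), which again follows from their removal. Otud6b, with 8 counts in liver and 0 in pancreas, passed without the filter (adjusted p = 0.0332), as did 27.9% of 24449 genes, 16.5% higher and 11.4% lower. No genotype by tissue interaction passed in 24449 genes (0 called). For Otub1 its adjusted p was 0.396 and for Otud5 0.255.

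The wider ubiquitin system was followed through lists, which were drawn up with earlier results known. The 59 other deubiquitinases summed to 3395 to 4661 CPM in HOM, 1893 to 3598 CPM in HET and 1969 to 3178 CPM in WT pancreas, and to 1005 to 1219 CPM in HET and 1147 to 1652 CPM in WT liver. Of the 19 tested in pancreas, 16 had a positive log2 difference in HOM against WT and 16 in HET against WT, with 0 called. Over all genes tested, 53.8% and 46.1% were positive. The medians were 0.89 and 1.43, against 0.19 and -0.20 over all genes tested. A gene could pass the filter through HOM and HET libraries alone, as Usp36 did, so the signs are not independent of the filter. The same WT libraries are in both comparisons. Markers of other cell types differed in the same comparisons, with 0 called: all 11 stomach, 5 duct and 2 acinar genes tested had positive differences in both, and all 4 endothelial and 3 macrophage genes negative ones. Their sums overlapped between HET and WT for stomach, duct and acinar genes, but not between HOM and WT. HOM sums were 5149 to 16837 CPM for stomach, 741 to 1452 CPM for duct and 3775 to 15712 CPM for acinar genes. WT sums were 24.6 to 95.5, 24.6 to 110 and 15.8 to 143 CPM. Macrophage sums overlapped between HOM and WT but not between HET (30.2 to 343 CPM) and WT (355 to 2315 CPM). Endothelial sums overlapped in both. The part of these markers in the deubiquitinase values was not tested. Usp36 had 18, 0 and 5 counts in HOM 10, 19 and 21, 0, 0, 126, 20 and 155 in HET 9, 10, 11, 15 and 16 and 0 in all WT. Usp14, a deubiquitinase of the proteasome, had 85, 55 and 21 counts in HOM 10, 19 and 21, 14, 19, 1, 55 and 10 in HET 9, 10, 11, 15 and 16 and 0, 1 and 18 in WT 11, 12 and 16. In liver 3 of 15 had positive differences of HET against WT (median -0.15, against 0.03 over all genes). So did 1 of 6 genes of the A20, TRAF and LUBAC list (median -0.57), where 52.1% of all genes tested were positive. None was called. Macrophage genes, of which 6 of 7 tested had negative differences (median -0.43), summed to 404 to 819 CPM in HET livers and to 812 and 823 CPM in WT livers, and their part in these values was not tested. Rbck1, a subunit of the linear ubiquitin ligase, had 15.1 to 30.8 CPM in HET livers, against 64.4 and 87.6 CPM in WT livers, a log2 difference of -1.52 ± 0.43 (edgeR, adjusted p = 0.247).

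Ubiquitin itself is made from several genes, and those tested were higher in liver than in pancreas. Ubb averaged 849 ± 331 CPM in HET liver and 637 ± 83.4 CPM in WT liver, against 21.1 ± 20.1 CPM in HET and 7.02 ± 8.01 CPM in WT pancreas (SD, n = 5, 2, 5 and 3). The log2 difference was 6.70 ± 1.33 (edgeR, adjusted p = 0.000425), and all 3 ubiquitin genes tested were called higher. Of the p97 and ER-associated degradation list, 4 of 8 tested were called higher, among them Derl1 and Syvn1, and of the 11 E1 and E2 enzymes 5 were, where 25.5% of all genes tested were called higher. A reference list of genes most cells use moved the same way, so the direction was not particular to the ubiquitin system. Of its 8 genes tested, 7 had positive differences and 5 were called higher. Its median log2 difference was 3.84, against 6.70 for ubiquitin genes, 3.56 for the p97 list and 2.68 for E1 and E2 enzymes. Derl1 had 94.9 to 152 CPM in HET livers and 93.4 and 155 CPM in WT livers and was at 0 in all HET and WT pancreata. Of the 30 other deubiquitinases tested, 4 were called higher and 4 lower, both smaller shares than the 25.5% and 27.7% over all genes tested. Usp24 averaged 32.6 ± 9.26 CPM in HET and 38.0 ± 8.18 CPM in WT liver and was at 0 in pancreas, whereas Usp9x was at 0 in liver and reached 205 CPM in HOM, 384 CPM in HET and 12.3 CPM in WT pancreas.

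**Figure D5:**
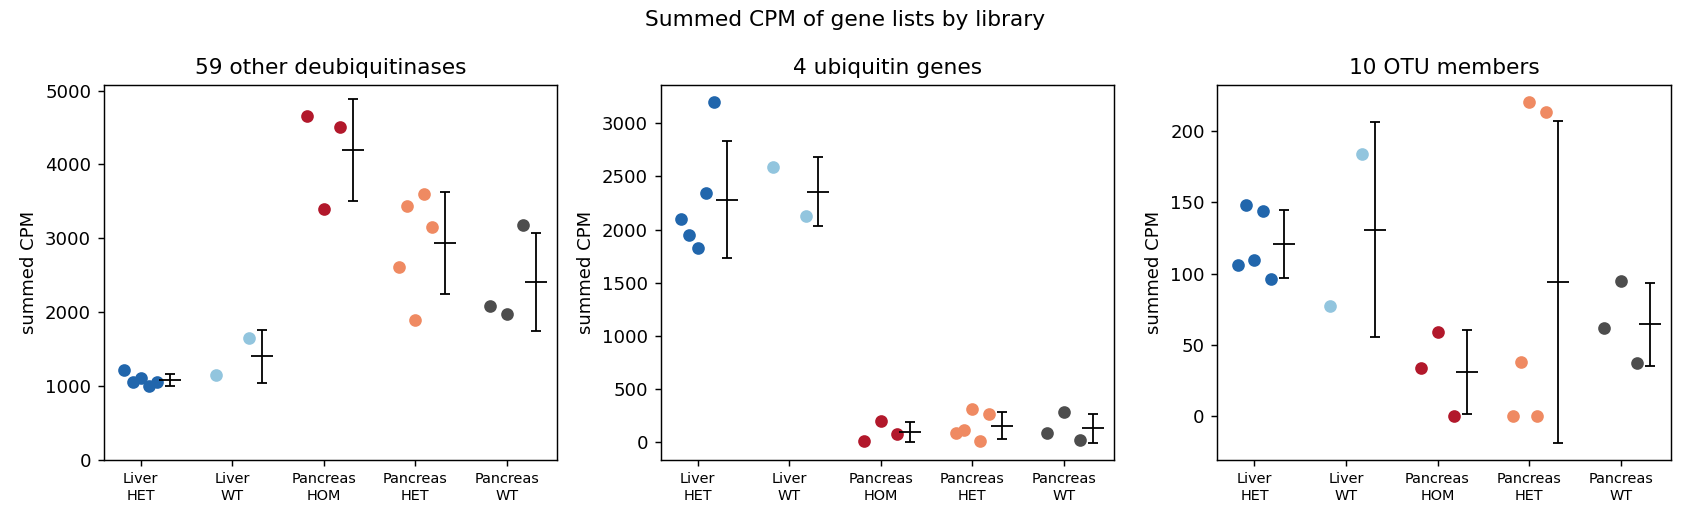
Summed CPM per library of 59 other deubiquitinases (left), 4 ubiquitin genes (middle) and the 10 members (right), by tissue and genotype, with the mean and SD of each group. Ubiquitin genes sum to 1824 to 3200 CPM in liver and at most 310 CPM in pancreas, while the sum of the other deubiquitinases is at least 1893 CPM in pancreas and at most 1652 CPM in liver. Of these 59 genes, 12 to 34 had counts in a pancreas library and 31 to 52 in a liver library. Of the 30 tested between tissues, 4 were called higher and 4 lower in liver.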

How the data were processed

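Per the labels' protocols, RNA from pancreas and liver was sequenced with MARS-seq adapted to bulk samples, a method that counts 3′ ends. Cutadapt, STAR and the mouse build mm10 are named per the submitters' processing notes, and the sources used here give no counting tool, annotation, strand use or handling of molecular barcodes. Strand use not being given, reads of overlapping genes, such as Yod1 and Pfkfb2, may not be told apart. Each tissue has a deposited table of gene counts in whole numbers, which the authors call corrected without saying for what; if that changed their spread, the p-values are affected. Totals differ between libraries, so no scaling was visible. CPM was computed as counts over the library total times 1000000.

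Differences were tested in R 4.3.3 with edgeR 4.0.16, using filterByExpr, TMM scaling, robust quasi-likelihood F test and Benjamini-Hochberg adjustment over all genes tested, threshold 0.05. Pancreas was fitted with genotype and sex, liver with genotype, and liver against pancreas (WT and HET) with tissue and genotype. Members outside the filter were tested in a fit with no filter beyond 1 count. Where a pooled group held 0 counts, a bound was taken from a floor of 3 counts over the group. Intervals (95%) cover counting error only, and pooled liver ratios were also taken with each library left out. Fitted differences in pancreas were followed through the alternatives for Otub1, Otub2 and Otud5, leaving out the pairs of groups that both held 3 counts or fewer, a choice made after their values were seen. Positions came from GENCODE mouse release 21 and promoter windows from RefSeq GRCm38.p6. Alternatives were DESeq2 1.42.0, other scalings and filters, no robust fit, no sex covariate, 2 groups only, a replicate block, leaving out HET 11 and HET 16, and each library in turn. The fits were tested on simulated data. Members and lists were chosen with earlier results of these data known. Genes named are all members, all other OTU genes, up to 4 genes of smallest p in each list, and the 3 genes most like Otub1 in each tissue. Outside this rule, the acinar genes at 0 (Prss2, Amy2b and Cel) and the Otub2 neighbours Ddx24 and Prima1 were chosen after their values were seen. Some genes of the lists are not reported here.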

Additional observations from a re-analysis of the deposited data

Results flagged for a closer look

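A member was looked at here when 1 library of a group of 5 lay so far from the others that the gap to the nearest, over the whole range, was above 0.71. For continuous values chance gives this in about 1 in 20 groups, but a gene with counts in only 1 of 5 libraries has a ratio of 1 by construction, so that rate does not hold here. Of 15 groups with counts, 7 met it, and 6 of those had counts in 1 library. In HET pancreas they were Otub2 in HET 16 (1.49 CPM, 1 count), Otud3 in HET 11 (16.6 CPM), Otud7b in HET 11 (18.1 CPM) and Tnfaip3 in HET 10 (25.6 CPM, 2 counts), each with 0 in the 4 other HET pancreata. In HET liver they were Otud1 and Otud4 in HET 5 (0.593 CPM each, 1 count) and Tnfaip3 in HET 1 (5.58 CPM, with 0.593 CPM the next highest).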

How the results depend on the processing

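Most members held a few counts, and a member's value can rest on 1 library. Of 468 alternative values over 27 gene results, 449 kept direction and side of the threshold, 7 lost and 4 gained a call and 8 changed direction. The 27 are not members alone: they take in Otulin, Zranb1 and list genes of smallest p, such as Rps27a, Ubb and Derl1. The tissue calls of Ubb and Derl1 held in all 22 alternatives each, so the total does not measure how stable the members are. Counts of called genes moved more. HOM against WT in pancreas called 0, and 5 with DESeq2, 13 without HET 11 and HET 16 and 5 with only the 2 groups. HET against WT in pancreas called 0, and 149 with DESeq2, 23 with total counts, 9 without HET 11 and HET 16, 146 without sex and 0 to 92 over libraries left out in turn (43 without HET 9, 92 without HET 15). HOM against HET called 0, and 32 with DESeq2 and 7 without HET 11 and HET 16. HET against WT in liver called 0, and 10 with DESeq2, 57 without a filter, 6 at a mean of at least 10 CPM and 0 to 6 over libraries left out in turn (1 without HET 1, 6 without HET 5, 4 without WT 1). Liver against pancreas called 4081, and 6823 without a filter and 3372 to 4147 over libraries left out. The cause of these shifts was not tested. The median log2 difference of all pancreas genes was -0.05 (HOM to WT), -0.77 (HET to WT) and 0.72 (HOM to HET) with scaling by total counts, and 0.19, -0.20 and 0.35 with TMM, and in liver -0.07 and 0.03.

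Directions changed for Otub1 in HET against WT pancreas (-2.95 without HET 11 and HET 16, -0.86 to 6.22 over libraries left out), Otud5 in HOM against HET pancreas (0.85 without HET 11 and HET 16), and, over livers left out in turn, Otub1 (-0.01 without HET 2, -0.24 to 1.46 in all), Otud5 (-0.87 to 0.53) and Otulin (-0.038 to 0.45) in HET against WT liver. Rps27a in HET against WT liver (1.81, adjusted p = 0.242 with edgeR) passed without a filter (1.94) and with the replicate block (2.29). Usp9x lost its tissue call with DESeq2 (-4.08). With the replicate number as a block, HET against WT called 157 genes in pancreas and 41 in liver, and Otulin in liver was -0.14. Only numbers 11 and 16 in pancreas and 1 and 2 in liver occur in both genotypes, so these block fits rest on those libraries alone. In pancreas they are HET 11 and HET 16, which stood apart, each set against a WT library of the other sex. Deviations of same-numbered libraries correlated at 0.0374 and -0.0898 in pancreas and -0.00289 and 0.00452 in liver, which gave no sign of pairing. So few pairs cannot show whether same-numbered samples are linked. HOM shares 0 numbers with WT and 1 with HET, so no block fit was made there.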

Other observations

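In liver, the genes whose CPM moved most like Otub1 over the 7 libraries were Ipo5, Extl3 and Khsrp, with mean absolute differences of 0.18, 0.18 and 0.21 in centred log2(CPM + 1), against a median of 0.75 over 4631 genes. In pancreas they were Rbfa, Ddb1 and Fam50a (0.73, 0.81 and 0.92, against a median of 4.03 over 2636 genes and 11 libraries), where Otub1 itself did not pass the filter.

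Of the genes within 500000 bases of Otub2, Ddx24, a DEAD-box protein gene, had 34, 0 and 10 counts in HOM 10, 19 and 21, 1, 0, 171, 0 and 135 in HET 9, 10, 11, 15 and 16 and 0, 0 and 27 in WT 11, 12 and 16 pancreas, and 32, 47, 24, 10 and 97 in HET 1 to 5 and 9 and 31 in WT 1 and 2 liver. Prima1 had 70 counts in HET 11 and 12 in HET 16 and 0 in every other library.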
